A study of Mus musculus with 108 samples.

Results

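The hippocampus of wild-type (WT) mice was compared between postnatal day 7 (P7) and the adult period of the series (labelled P35). The comparison used 11 of the 108 RNA sequencing libraries, chosen by their labels as hippocampus and wild type at either age, with 6 libraries at P7 and 5 at P35. The series as a whole profiled the cerebral cortex, hippocampus and cerebellum of WT mice and of Cul3+/- mice, which carry 1 frameshifted copy of the ubiquitin ligase gene Cul3, at the embryonic stage E17.5, at P7 and at P35. Each of the 11 libraries held ribosomal RNA-depleted total RNA from the hippocampus of 1 mouse with no Cul3 mutation and no treatment. The labels spell the strain background C56Bl/6N, whereas the study's paper gives C57BL/6N. A 6th P35 mouse labelled wild type was left out, because the study's own quality table listed it as Cul3+/-. The adult mice are labelled P35, whereas the series' design text gives an age of 4 to 6 weeks. The P7 and P35 mice were different animals, their sex is not in the labels, and age cannot be told apart from anything else that differed between the 2 collections.

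In the mouse hippocampus, pyramidal neurons of the CA fields are born before birth, whereas granule neurons of the dentate gyrus are still being added in large numbers during the first postnatal week. At that age axons and dendrites are growing, synapses are few, and oligodendrocytes, the cells that wrap axons in myelin, have barely begun to differentiate. Over the following weeks synapses form and mature, receptor and ion channel subunits of the neonate give way to adult ones, inhibitory circuits with parvalbumin interneurons are completed, and the fibre tracts become myelinated.

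The libraries held 34640247 to 42330741 counts at P7 and 27477505 to 36925423 at P35. Levels are given below as CPM, the counts of a gene relative to the library total, scaled by the trimmed mean of M values (TMM) across the 11 libraries. The tissue labels were checked against 10 hippocampal genes, whose mean log2 CPM lay between 5.44 and 5.81 in the P7 hippocampus and between 6.36 and 6.58 at P35, above all WT cortex libraries (3.94 to 4.17) and all WT cerebellum libraries (2.73 to 3.42) of the same ages. The cerebellar genes Pcp2 and Gabra6 were at or close to 0 in every hippocampus library. The share of counts on mitochondrially encoded genes was 1.496 to 2.512% at P7 and 5.673 to 6.677% at P35. Ribosomal RNA genes, including the mitochondrial ones, took 0.605 to 1.15% at P7 and 3.59 to 4.41% at P35, and protein-coding genes 85.8 to 87.7% and 81.3 to 81.95%. Of the P35 libraries, replicates 3 and 5 stood apart in RNA of the choroid plexus, the secretory epithelium that borders the hippocampus in the ventricle. The summed level of 14 choroid plexus genes was 2158 and 1537 CPM in these libraries, against 28.7, 66.5 and 40.3 CPM in the other P35 libraries and 19.5 to 160.4 CPM at P7.

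Most genes tested changed between the 2 ages. Of 17704 genes tested, 13146 (74.3%) passed an adjusted p of 0.1, the threshold of the study, with 6515 (36.8%) higher and 6631 (37.5%) lower at P35 (edgeR quasi-likelihood test, Benjamini-Hochberg adjustment). A change of at least 2-fold was found for 1413 genes that rose (7.98%) and 1797 that fell (10.2%), and these shares are the background for the gene groups below. A change of at least 16-fold was found for 58 genes that rose and 33 that fell. The lowest library of one age lay above the highest of the other for 9381 genes (53.0%). The median log2 fold change of all genes tested was -0.01. In a bulk sample, fewer cells of a type and less RNA per cell cannot be told apart. Each change below is therefore a change in the TMM-scaled level in hippocampal RNA. The TMM factors were 1.03 to 1.08 at P7 and 0.917 to 0.959 at P35. Small changes in scaled level can therefore differ from changes in the plain share of counts. Genes named as having risen or fallen between P7 and P35 had groups that did not overlap, unless stated otherwise.

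**Figure D1:**
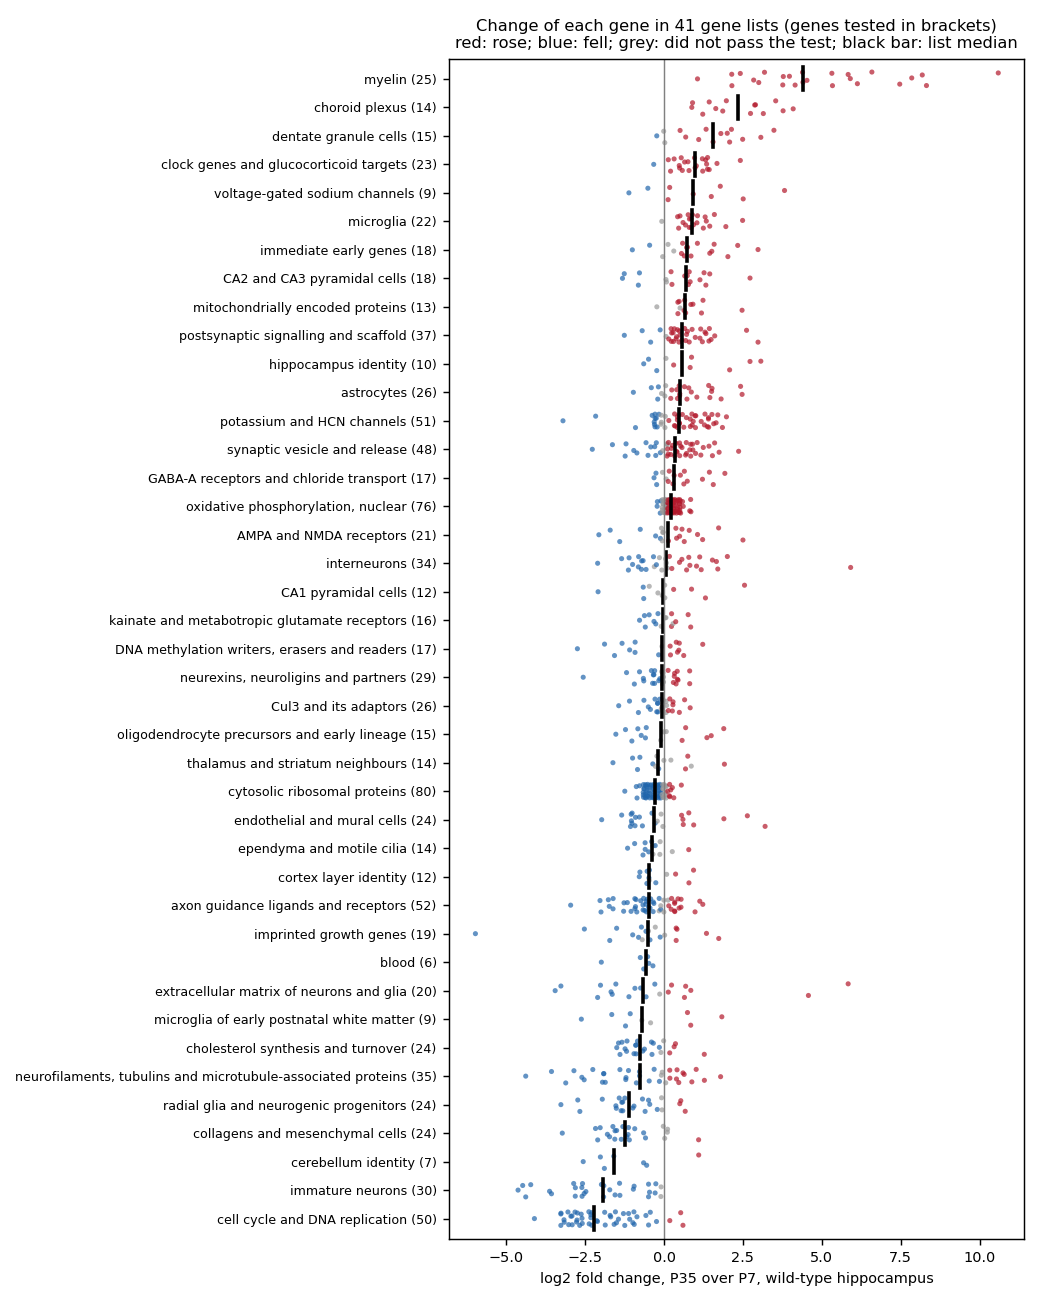
Log2 fold change (P35 over P7) in WT hippocampus of each gene (points) of 41 gene lists, with a black bar at the list median; red points rose, blue points fell and grey points did not pass the test. Myelin genes had the highest median of these lists (4.40) and cell cycle genes the lowest (-2.21).

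The largest rise was that of myelin. Of the 15 protein-coding genes with the largest rise above a level floor of 20 CPM and without overlap, Mobp, Opalin, Mog, Mal, Ermn, Mag, Cldn11, Fa2h, Aspa and Mbp were among the members of the myelin list. Mobp, which encodes a basic protein of the compact myelin sheath, was at 0.156 CPM in its lowest P7 library, 0.391 at the median and 1.204 at the highest, and at 594.7, 797, 770.5, 1014 and 617.6 CPM in the P35 libraries. The gene was all but silent in every P7 hippocampus, and its rise was 10.59 ± 0.30 on the log2 scale (log2 fold change ± SE, adjusted p = 1.5e-12). Mbp, the basic protein that compacts the membrane layers, was already measurable at 53.6, 63.7 and 69.3 CPM (lowest, median and highest) at P7 and reached 961, 1278, 1400, 1867 and 1060 CPM at P35 (4.39 ± 0.15).

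All 25 myelin genes rose, each by at least 2-fold, with a median of 4.40 and a range from 1.06 (Gpr37) to 10.59 (Mobp). Mog, a surface protein of the outer myelin layer, rose by 8.18 ± 0.20, and the oligodendrocyte membrane protein gene Opalin by 8.31 ± 0.23, from at most 0.137 CPM at P7 to 21.4 to 31.6 CPM. The summed level of the list was 279.6 to 337.4 CPM at P7 and 5456, 7107, 8326, 9469 and 5986 CPM at P35. The P35 replicates 3 and 5, which held the choroid plexus RNA, also had the highest myelin sums. Without these replicates, all 25 genes still rose and the median was 4.24. Erbb3, a neuregulin receptor that is also on cells of the oligodendrocyte lineage, was among the 15 genes with the largest rise although it was in no list (4.65 ± 0.14).

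The promoter of Mobp is shown as the reference sequence of the gene with the largest rise, from RefSeq, build GRCm38.p6, chr9:120149492-120149791 on the plus strand, 250 bases before to 50 after the annotated start. Capitals mark ACAAAG on either strand, the core letters bound by SOX-family factors such as Sox10, and the window held 6 matches.
Mobp: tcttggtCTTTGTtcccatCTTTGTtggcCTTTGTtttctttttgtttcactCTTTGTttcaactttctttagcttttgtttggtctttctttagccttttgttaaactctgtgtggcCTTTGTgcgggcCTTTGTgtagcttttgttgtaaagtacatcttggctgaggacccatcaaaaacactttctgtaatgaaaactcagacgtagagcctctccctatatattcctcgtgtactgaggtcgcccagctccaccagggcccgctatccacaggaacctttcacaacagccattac
At least 1 ACAAAG was found in 9 of 24 promoters (37.5%) of the 18 myelin genes that matched the RefSeq table, against 18.7% of all 32851 promoters of that length. A match is only a description of the letters in the window.

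Genes of the oligodendrocyte lineage ahead of myelination moved unevenly. Of 15 genes, 5 rose and 7 fell, 3 in each direction by at least 2-fold, and the median was -0.11. Pdgfra, the growth factor receptor that defines oligodendrocyte precursors, was at 150.6, 174.7 and 182.7 CPM at P7 and at 81.7, 80.9, 94.3, 80.0 and 86.8 CPM at P35, a log2 fold change of -1.02 ± 0.06. The precursor proteoglycan gene Cspg4 fell by 1.22. Gpr17, a receptor of cells committed to differentiate, was at 60.2 to 110.1 CPM at P7 and 71.8 to 110.7 CPM at P35 and did not pass the test (-0.01 ± 0.15, adjusted p = 0.97). Enpp6 and Bcas1, which mark newly formed oligodendrocytes, rose by 1.49 and 1.89.

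**Figure D2:**
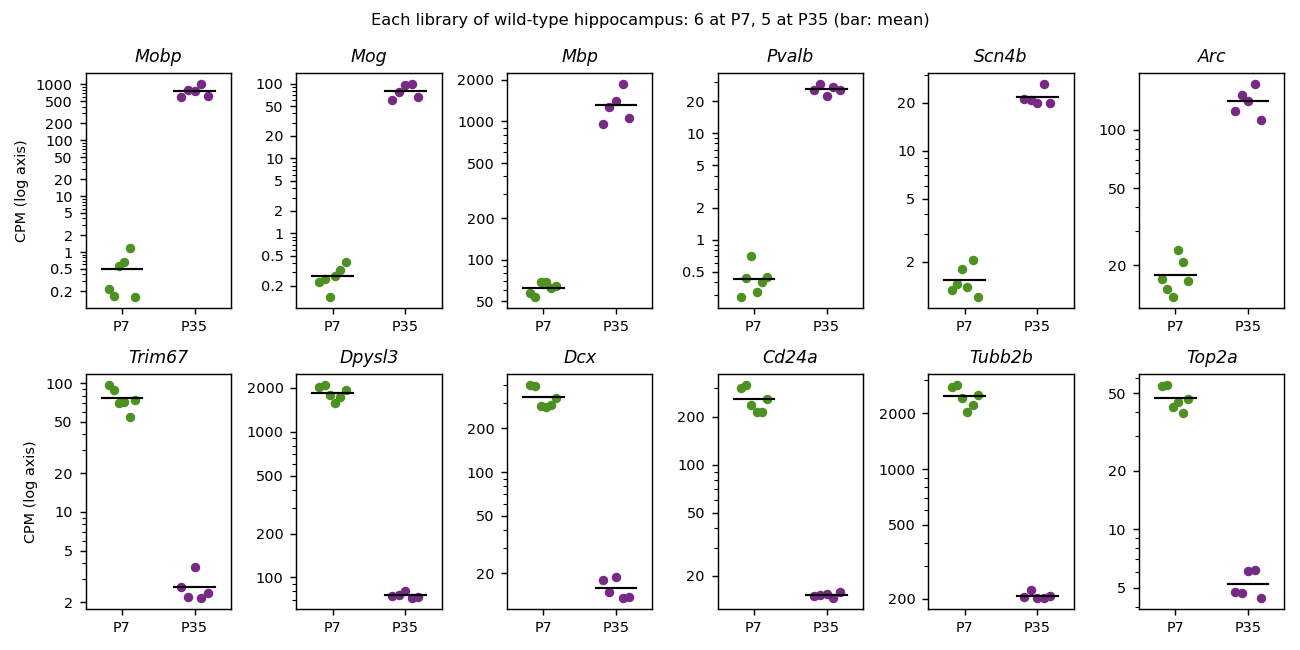
CPM (log axis) of named genes in each WT hippocampus library at P7 (6 libraries) and P35 (5 libraries), with a bar at the mean of each age. The points of the 2 ages do not overlap for any gene drawn, with the genes of the upper panels (Mobp to Arc) higher at P35 and those of the lower panels (Trim67 to Top2a) higher at P7.

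Genes of dividing cells fell almost as a group. Of 50 cell cycle and DNA replication genes, 47 fell and 3 rose, 39 of the falls were at least 2-fold, and the median was -2.21. Mki67, expressed in dividing cells only, was at 34.1, 40.6 and 45.9 CPM at P7. It was at 3.36, 3.82, 4.66, 4.86 and 4.12 CPM at P35, a log2 fold change of -3.27 ± 0.11 (adjusted p = 3.7e-12). The topoisomerase gene Top2a fell by 3.17 and the thymidine kinase gene Tk1 by 4.11. Pcna, the sliding clamp of DNA replication, fell by only 0.24. Of the genes that rose, Ccnd1 and Ccne1 are cyclins of the entry into the cycle, and rose by 0.53 and 0.60. The summed level of the list was 696 to 820 CPM at P7 and 322 to 348 CPM at P35.

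Promoters of the cell cycle genes often held the letters of 2 known elements. Shown are Mki67, Ccnb2 (cyclin B2) and Cdc20 (an activator of the anaphase-promoting complex), with log2 fold changes of -3.27, -3.05 and -2.67, as examples with both elements. The sequences are RefSeq promoters of GRCm38.p6 on the minus strand, chr7:135716330-135716629, chr9:70421505-70421804 and chr4:118437294-118437593, and capitals mark TTTGAA, the core letters of the cell cycle homology region, and CCAAT, the core letters bound by nuclear factor Y, on either strand.
Mki67: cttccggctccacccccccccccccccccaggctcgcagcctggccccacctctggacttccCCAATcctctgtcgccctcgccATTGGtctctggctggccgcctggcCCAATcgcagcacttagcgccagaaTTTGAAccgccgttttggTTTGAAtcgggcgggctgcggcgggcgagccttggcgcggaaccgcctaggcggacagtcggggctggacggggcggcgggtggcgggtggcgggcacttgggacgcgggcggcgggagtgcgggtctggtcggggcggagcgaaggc
Ccnb2: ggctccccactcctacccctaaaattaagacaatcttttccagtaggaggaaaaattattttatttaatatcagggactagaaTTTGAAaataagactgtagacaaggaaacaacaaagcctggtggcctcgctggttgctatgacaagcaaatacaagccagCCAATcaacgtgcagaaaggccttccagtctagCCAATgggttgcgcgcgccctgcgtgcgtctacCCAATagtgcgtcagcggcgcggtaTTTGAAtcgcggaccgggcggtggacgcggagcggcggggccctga
Cdc20: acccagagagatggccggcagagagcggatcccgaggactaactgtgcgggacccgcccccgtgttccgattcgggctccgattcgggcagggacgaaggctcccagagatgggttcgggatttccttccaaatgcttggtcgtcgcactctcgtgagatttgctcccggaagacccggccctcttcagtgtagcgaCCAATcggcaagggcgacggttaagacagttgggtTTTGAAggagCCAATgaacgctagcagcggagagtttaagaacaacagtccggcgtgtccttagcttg
TTTGAA and CCAAT can share an end letter, and such overlaps were kept. Both occurred together in 17 of 41 promoters (41.5%) of the 38 cell cycle genes that matched, against 6.95% of all 32851 promoters. CCAAT alone was in 75.6% against 37.4%, and GGGCGG, the letters bound by Sp1, in 82.9% against 35.7%.

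Progenitor genes fell with them. Of 24 genes of radial glia and neurogenic progenitors, 19 fell and 3 rose, with a median of -1.12, and 12 of the falls were at least 2-fold. Eomes (Tbr2), a transcription factor of intermediate progenitors of glutamatergic neurons, was at 8.69, 10.4 and 15.2 CPM at P7 and at 1.27, 1.29, 2.01, 2.83 and 0.777 CPM at P35, a log2 fold change of -2.73 ± 0.25. The Notch target gene Hes5 fell by 1.51 and the intermediate filament gene Nes, nestin, by 1.42. Hopx and Prom1, which are also expressed by adult stem cells or other glia, rose by 0.53 and 0.67.

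Genes of immature neurons fell as well. None of 30 genes rose, 28 fell and 21 fell by at least 2-fold, with a median of -1.95. Dcx, doublecortin, a microtubule protein of migrating neurons, was at 283, 310 and 400.0 CPM at P7. At P35 it was at 18.1, 14.9, 18.8, 13.5 and 13.7 CPM, a log2 fold change of -4.39 ± 0.13. Dpysl3, a collapsin response mediator of growing axons, was at 1586, 1853 and 2101 CPM at P7 and 74.2, 76.3, 80.3, 72.1 and 72.9 CPM at P35, a log2 fold change of -4.63 ± 0.08 (adjusted p = 4.1e-14). Its relative Dpysl5 fell by 4.48. The neuronal transcription factor gene Sox11 fell by 2.58, and Stmn2, a growth cone regulator of microtubules, by 1.92.

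The largest fall above the level floor was that of Trim67, a brain-enriched ubiquitin ligase that acts in the response to the axon guidance cue netrin. Trim67 was at 54.6, 72.9 and 96.8 CPM at P7 and at 2.60, 2.18, 3.72, 2.15 and 2.36 CPM at P35, a log2 fold change of -4.87 ± 0.17 (adjusted p = 1.1e-11). Others of the 15 largest falls were Cxadr, an adhesion protein and virus receptor (log2 fold change -4.36), the apelin receptor gene Aplnr (-4.23), the repulsive guidance gene Draxin (-4.23) and the surface glycoprotein gene Cd24a (-4.08). The list continued with Nrep, Mkrn3, Vash2, Igfbpl1, Tubb2b, Col26a1 and Rac3, with log2 fold changes from -3.72 to -3.32. Of 52 axon guidance ligands and receptors, 33 fell and 14 rose, 11 and 2 by at least 2-fold, with a median of -0.47. The ephrin receptor gene Epha8 fell by 2.96 and the semaphorin receptor gene Plxna3 by 2.03. Slit1, a repulsive ligand, and the netrin receptor gene Unc5b rose by 1.13 and 1.23.

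The cytoskeleton changed in composition. Of 35 genes of neurofilaments, tubulins and microtubule-associated proteins, 21 fell and 11 rose, with a median of -0.78. Tubb2b, a beta tubulin of young neurons, was at 2027, 2465 and 2840 CPM at P7 and at 204.1, 222.1, 202.5, 202.1 and 206.3 CPM at P35, a log2 fold change of -3.57 ± 0.09. Map1b, a microtubule-associated protein of growing axons, fell by 1.21, while Kif5a, a motor of axonal transport, rose by 1.28 and Tuba8 by 1.79. Of 20 genes of the extracellular matrix, 12 fell and 7 rose, with a median of -0.66. The matrix glycoprotein gene Tnc fell by 3.27 and the proteoglycan gene Ncan by 2.02. Hapln4 and Hapln2, link proteins of perineuronal and perinodal matrix, rose by 4.57 and 5.83.

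Genes of dentate granule neurons rose. Of 15 dentate granule genes, 12 rose, 10 by at least 2-fold, 1 fell, and the median was 1.55. C1ql2, a secreted complement-like synaptic organiser of mossy fibres, was at 4.72, 5.75 and 6.55 CPM at P7. It was at 50.9, 42.0, 57.6, 43.8 and 42.4 CPM at P35, a log2 fold change of 3.07 ± 0.10. Plk5 rose by 3.48, the desmosomal gene Dsp by 2.08 and the calcium-binding protein gene Calb1 by 1.1. Prox1, the transcription factor that specifies granule neurons, was at 95.04 to 137.5 CPM at P7 and 89.9 to 112.8 CPM at P35, with overlapping groups and a log2 fold change of -0.23 (adjusted p = 0.024). The summed level of the list was 549 to 663 CPM at P7 and 1100 to 1249 CPM at P35.

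Genes of the pyramidal fields moved in both directions. Of 18 CA2 and CA3 genes, 12 rose and 4 fell, with a median of 0.69. Rgs14, a signalling regulator of CA2 neurons, was at 10.2, 12.3 and 14.6 CPM at P7 and at 78.8, 93.4, 86.6, 71.4 and 80.1 CPM at P35 (2.72 ± 0.10). The CA2 adhesion gene Amigo2 rose by 0.83, whereas Coch and Socs2 fell by 1.32 and 1.26. Of 12 CA1 genes, 4 rose and 3 fell, with a median of -0.02. Wfs1, a membrane protein of the endoplasmic reticulum in CA1 neurons, rose by 0.87 and Lefty1 by 2.55. Itga5 fell by 2.09.

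The largest rise among interneuron genes was that of parvalbumin. Pvalb, a calcium buffer of fast-spiking interneurons, was at 0.289, 0.420 and 0.700 CPM at P7 and at 25.6, 29.0, 22.4, 27.4 and 25.3 CPM at P35, a log2 fold change of 5.91 ± 0.14 (adjusted p = 4.0e-13). Over 34 interneuron genes, 15 rose and 13 fell, with a median of 0.06. Gad1, an enzyme of GABA synthesis, rose by 1.13 and Lamp5, of neurogliaform cells, by 2.005. Sst, somatostatin, rose by 0.25, with overlapping groups. Reln, which encodes the secreted protein reelin of Cajal-Retzius cells and interneurons, was at 382.0 to 474.6 CPM at P7 and 83.8 to 115.2 CPM at P35 (-2.11 ± 0.09). Lhx6, a transcription factor of developing interneurons, fell by 1.11.

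Receptor genes moved in both directions. Of 21 AMPA and NMDA receptor genes tested, 11 rose and 6 fell, with a median of 0.14. Grin2a, the adult-type NMDA receptor subunit, was at 213.3, 257.9 and 291.1 CPM at P7 and at 909.9, 826.0, 878.3, 728.8 and 887.2 CPM at P35 (1.73 ± 0.09). Grin2b, the subunit that predominates in the neonate, was at 704 to 915 CPM at P7 and 624 to 861 CPM at P35 and did not pass the test (-0.08 ± 0.09, adjusted p = 0.41). Grin2c rose by 2.499, and Grin2d and Grin3a fell by 1.71 and 1.41. The AMPA receptor gene Gria1 rose by 0.64 and its auxiliary subunit gene Cacng4 fell by 2.07. None of 16 kainate and metabotropic receptor genes changed by 2-fold. Of 17 genes of GABA receptors and chloride transport, 12 rose and 3 fell, among them the extrasynaptic subunit gene Gabrd (1.93), while Gabra5 did not pass the test (-0.05 ± 0.07, adjusted p = 0.54).

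Most of the sodium channel genes, and of the potassium and HCN channel genes, rose. Of 9 voltage-gated sodium channel genes, 7 rose and 2 fell, with a median of 0.92. Scn4b, an auxiliary subunit, was at 1.199, 1.42 and 2.06 CPM at P7 and at 21.1, 20.8, 19.9, 26.3 and 19.99 CPM at P35 (3.82 ± 0.13). Scn2b rose by 2.51 and the pore-forming subunit gene Scn1a by 1.78, while the neonatal subunit gene Scn3a fell by 0.51. Of 51 genes of potassium and HCN channels, 34 rose and 12 fell, 14 and 2 by at least 2-fold, with a median of 0.49. Kcnab2 and Kcnab1, auxiliary subunits of axonal potassium channels, rose by 1.98 and 1.85. The falls of at least 2-fold were those of the pacemaker channel genes Hcn4 (-3.20) and Hcn3 (-2.17).

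Synaptic genes rose more often than they fell. Of 37 postsynaptic signalling and scaffold genes, 32 rose and 4 fell, 11 and 1 by at least 2-fold, with a median of 0.57. Camk2a, the kinase of synaptic potentiation, was at 295.5, 362.6 and 425.6 CPM at P7 and at 918, 859, 1109, 849 and 1101 CPM at P35 (1.42 ± 0.10). Ddn, dendrin, rose by 2.61, and Dlg4, the scaffold PSD-95, by 0.24. Of 48 synaptic vesicle and release genes, 32 rose and 13 fell, with a median of 0.36, among them Vamp1 (2.36) and Syt1 (0.91), while Doc2a fell by 2.28. Of 29 neurexins, neuroligins and partners, 10 rose and 14 fell, none and 2 by at least 2-fold.

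Activity-regulated genes rose too. Of 18 immediate early genes, 13 rose and 2 fell, 7 and 1 by at least 2-fold, with a median of 0.73. Arc, which acts in synaptic plasticity, was at 13.7, 16.8 and 23.8 CPM at P7 and at 125.7, 151.3, 140.9, 172.7 and 112.5 CPM at P35 (2.98 ± 0.14). Npas4 rose by 2.02, Egr1 by 1.51 and Fos by 1.06, and Nr4a3 fell by 1.01. Of 23 clock genes and glucocorticoid targets, 22 rose and 1 fell, with a median of 0.96, among them Hlf (2.42), Bhlhe41 (1.68), Dbp (1.32) and Fkbp5 (0.65). The time of day of collection is not in the labels, and its part in these values was not tested.

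**Figure D3:**
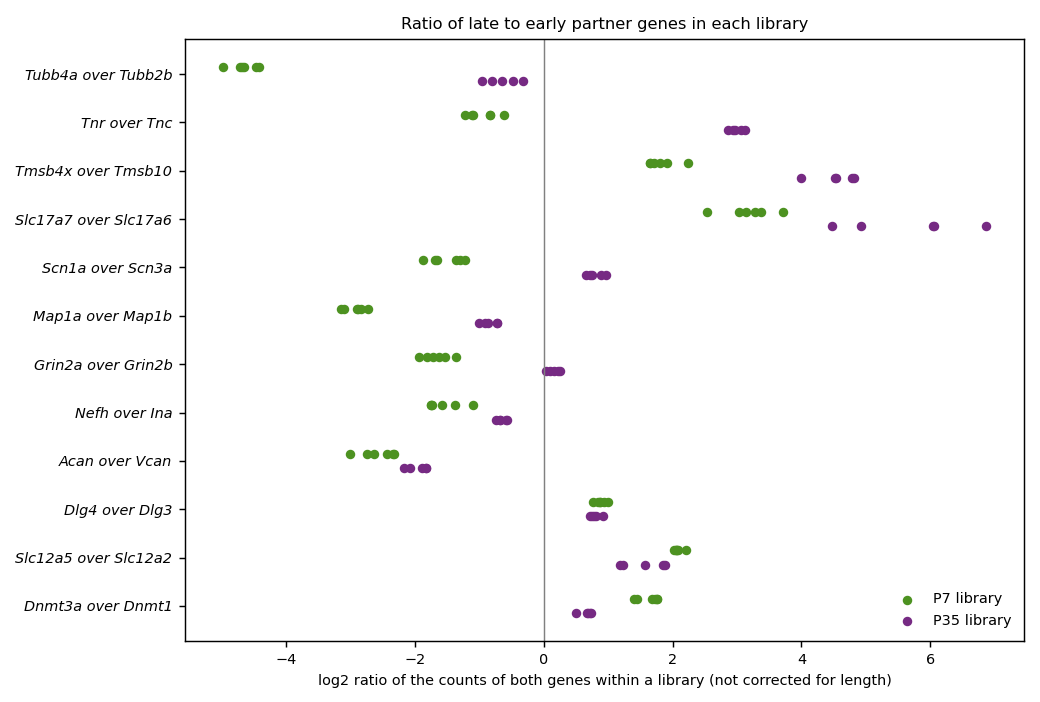
Log2 ratio of the counts of the partner assigned as late to the partner assigned as early, for 12 of the 14 gene pairs. Ratios are not corrected for gene length and are drawn for each library at P7 and P35. The assignment does not hold for every gene. Dnmt3a, assigned late, itself fell from P7 to P35. Acan, also assigned late, had medians of 12.8 CPM at P7 and 6.58 CPM at P35 in a scaling that included E17.5. Slc12a2, assigned early, itself rose. The ratio rose without overlap for most pairs, fell for the chloride cotransporters and DNA methyltransferases, and overlapped for the DLG scaffolds.

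Ratios of partner genes within a library do not depend on scaling between libraries, and 14 pairs were compared by an exact 2-sided permutation test over the 462 arrangements of the 11 libraries. With these group sizes 0.002165 is the smallest p possible, and 12 pairs reached it (adjusted p = 0.002525 over the 14 pairs). Groups of single genes did not overlap for 53.0% of all genes tested. No background share over other gene pairs was computed, so the count of pairs has nothing to be set against. The log2 ratio of Grin2a to Grin2b was between -1.94 and -1.37 at P7 and between 0.03 and 0.25 at P35, a difference of 1.82, and per kilobase of exon the ratio went from 0.435 to 1.54. The ratio of Scn1a to Scn3a rose by 2.32, from 0.390 to 1.94 per kilobase. Structural pairs differed in size, with 4.01 for the tubulins Tubb4a to Tubb2b, 3.95 for the tenascins Tnr to Tnc and 2.71 for the thymosins Tmsb4x to Tmsb10. Smaller rises were 2.08 for Map1a to Map1b, 0.90 for the filament genes Nefh to Ina and 0.62 for the lecticans Acan to Vcan. In a scaling that included E17.5, the medians of Acan and Vcan were both lower at P35 than at P7. The ratio of Slc17a7 to Slc17a6, the vesicular glutamate transporters, rose by 2.498, with a wide spread at P35 (4.48 to 6.87). Slc17a6 itself varied from 7.98 to 33.8 CPM among the P35 libraries.

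In 2 pairs the ratio fell. Slc12a5, the chloride exporter KCC2, rose by 0.64, but the importer gene Slc12a2, NKCC1, rose by 1.22, so that the log2 ratio of exporter to importer went from 2.08 ± 0.07 (SD, n = 6) to 1.55 ± 0.33 (SD, n = 5), and per kilobase from 6.20 to 4.28. Slc12a2 was highest in the P35 replicates 3 and 5 (172.2 and 153.9 CPM, against 95.4 to 106.5 CPM in the others), the libraries with choroid plexus RNA, and the part of that RNA in the ratio was not tested. The other P35 libraries were also above every P7 library (51.3 to 57.6 CPM). Without replicates 3 and 5 the difference was -0.31 in place of -0.54. The ratio of Dnmt3a, a de novo DNA methyltransferase, to the maintenance enzyme Dnmt1 fell by 0.97. The ratio of the scaffolds Dlg4 to Dlg3 did not pass the test (difference -0.08, exact permutation p = 0.11).

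Most astrocyte genes rose, by smaller steps than those of myelin. Of 26 astrocyte genes, 19 rose and 4 fell, 8 and 0 by at least 2-fold, with a median of 0.50. S100b was at 11.2, 15.2 and 17.7 CPM at P7 and at 75.5, 85.1, 80.9, 79.5 and 88.3 CPM at P35 (2.47 ± 0.10). Gjb6, an astrocytic gap junction gene, rose by 2.42 and the glutamate transporter gene Slc1a2 by 1.45. The water channel gene Aqp4, in contrast, was at 249.0 to 293.5 CPM at P7 and 222.3 to 277.7 CPM at P35, with overlapping groups (-0.18 ± 0.06, adjusted p = 0.019). The largest falls of the list were those of Slc6a11 (-0.97 ± 0.05) and Aldh1l1 (-0.40 ± 0.04), while Sox9 and Slc1a3 did not pass the test.

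Of 22 microglia genes, 21 rose and none fell, 9 by at least 2-fold, with a median of 0.88. P2ry12, a purinergic receptor of homeostatic microglia, was at 16.3, 18.95 and 20.98 CPM at P7 and at 44.9, 48.7, 46.8, 42.8 and 47.6 CPM at P35 (1.301 ± 0.059). Tmem119 rose by 1.59 and Selplg by 2.49. Of 9 genes of the microglia of early postnatal white matter, 3 rose and 4 fell, 1 and 4 by at least 2-fold. The list median was -0.71 and the largest rise 1.83. Igf1 was at 28.4 to 34.0 CPM at P7 and 8.71 to 10.6 CPM at P35 (-1.66 ± 0.07). Lpl, lipoprotein lipase, fell by 2.62. Neither Igf1 nor Lpl is specific to microglia in the hippocampus. Other members of the list went the other way at low levels. In a scaling that included E17.5, the median of Gpnmb was 0.836 CPM at P7 and 4.11 CPM at P35. That of Clec7a was 0.365 and 0.866 CPM.

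Connective tissue genes fell, and vascular genes moved in both directions. Of 24 collagens and mesenchymal genes, 19 fell and 1 rose, 16 of the falls by at least 2-fold, with a median of -1.25. Col3a1, a fibrillar collagen of meninges and vessels, was at 58.9, 99.8 and 128.2 CPM at P7 and at 7.58, 9.15, 15.98, 9.64 and 10.8 CPM at P35 (-3.23 ± 0.22). Of 24 endothelial and mural genes, 13 fell and 8 rose, with a median of -0.33. Kdr, the VEGF receptor of growing vessels, fell by 1.34 and the tight junction gene Cldn5 by 0.91. Ly6a and the transporter gene Slco1a4 of mature brain endothelium rose by 3.20 and 2.64. All 6 blood genes tested fell, with a median of -0.58, although near-identical globin copies such as Hba-a1 share reads. The groups did not overlap for only 2 of these 6 genes, and those of Hba-a1 overlapped.

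The choroid plexus list depended on 2 libraries. All 14 genes rose with all 5 P35 libraries, 12 by at least 2-fold, with a median of 2.36, but without replicates 3 and 5 only 2 rose and 7 fell and the median was -0.77. Ttr, transthyretin, the main secreted protein of the choroid plexus, was at 3.59, 26.6 and 137.4 CPM at P7. It was at 1.78, 32.5, 1942, 1368 and 9.32 CPM at P35. The groups overlapped, and the log2 fold change of 4.09 became -1.47 without the 2 libraries. Kl, klotho, was at 19.1, 22.5 and 20.1 CPM in the other P35 libraries, above the 4.50 to 5.52 CPM of all P7 libraries. Of 14 genes of ependyma and motile cilia, 8 fell and 1 rose, and 12 fell and 1 rose without replicates 3 and 5. With all libraries the groups did not overlap for only 2 of these 14 genes, against 53.0% over all genes.

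**Figure D4:**
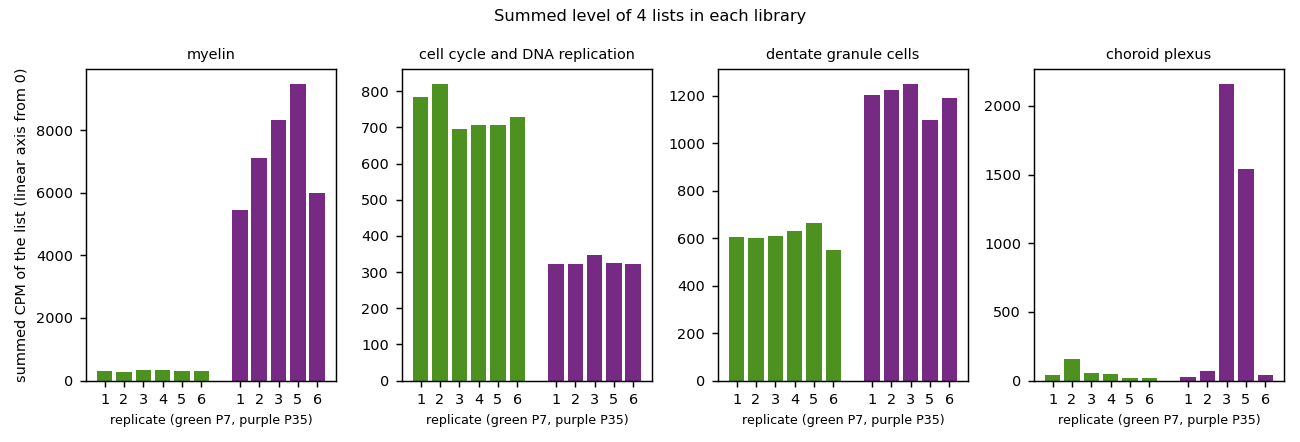
Summed CPM (bars, linear axis from 0) of 4 gene lists in each library, at P7 in green and at P35 in purple. The choroid plexus sum is high in P35 replicates 3 and 5 only (2158 and 1537 CPM), whereas the myelin sum is 5456 CPM or more in all 5 P35 libraries.

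Genes of energy metabolism and of the ribosome moved mostly by small steps. Of 76 nuclear genes of oxidative phosphorylation, 53 rose and 4 fell, none by 2-fold, with a median of 0.23, the largest rise being that of Sdha (0.85 ± 0.04). Of 13 mitochondrially encoded protein genes, 11 rose, 3 of them by at least 2-fold, and none fell, with a median of 0.65. The mitochondrial share of the libraries given above moved with age as well, and its part in these rises was not tested. Of 80 cytosolic ribosomal protein genes, 60 fell and 8 rose, with a median of -0.28, and only Rplp0 changed by 2-fold (-1.25 ± 0.06). Of 24 genes of cholesterol synthesis and turnover, 18 fell and 4 rose, 7 and 1 by at least 2-fold, with a median of -0.76. Hmgcs1, an early enzyme of the pathway, was at 880 to 1051 CPM at P7 and 327 to 450 CPM at P35 (-1.34 ± 0.07), while Cyp46a1, the neuronal enzyme that removes cholesterol, rose by 1.27.

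Of 17 genes that write, erase or read DNA methylation, 8 rose and 8 fell. Dnmt3a was at 297, 317 and 328 CPM at P7 and at 79.3, 85.1, 89.6, 87.7 and 82.99 CPM at P35, a log2 fold change of -1.89 ± 0.04. Uhrf1, the partner of Dnmt1 in dividing cells, fell by 2.75. Of 19 imprinted growth genes, 10 fell and 5 rose. H19, a maternally expressed non-coding RNA, was at 4.87 to 18.9 CPM at P7 and 0.101 to 0.335 CPM at P35 (-5.98 ± 0.45), and Igf2 fell by 1.504. Impact, which is expressed from the paternal copy, rose by 1.73.

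Cul3 itself changed little. It was at 150.8, 164.8 and 175.2 CPM at P7 and at 185.0, 202.2, 184.3, 168.3 and 188.2 CPM at P35, with overlapping groups and a log2 fold change of 0.18 ± 0.05 (adjusted p = 0.0044). Of 26 genes of Cul3 and its adaptors, 8 rose and 12 fell, 0 and 2 by at least 2-fold. Kctd13, an adaptor that brings RhoA to Cul3, fell by 0.20 with overlapping groups, Rhobtb1 by 1.44, and Klhl3 rose by 0.83. Keap1, the adaptor for the stress factor Nrf2, did not pass the test (0.08 ± 0.05, adjusted p = 0.13). The genes that stayed closest to 1 level were Ppp6r3, Hmgxb3, Relch, Rab5b and Tmed10. Ppp6r3, a phosphatase subunit, was at 102.7 to 110.4 CPM at P7 and 104.2 to 112.3 CPM at P35.

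Transcripts of miRNA host genes were measured, while the mature miRNAs were not. The hosts below were picked after their values were seen. Of 7 host genes, 4 fell, 1 rose and 2, both hosts of miR-124, did not pass the test. The mature sequences that lie in 3 of these hosts are given from RefSeq (GRCm38.p6), with the seed, bases 2 to 8, in capitals, to show that the 2 miRNAs of Mir17hg share a seed.
mmu-miR-9-5p: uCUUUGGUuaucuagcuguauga
mmu-miR-22-3p: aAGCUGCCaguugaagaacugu
mmu-miR-17-5p: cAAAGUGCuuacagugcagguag
mmu-miR-20a-5p: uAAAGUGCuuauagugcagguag
Mir9-3hg, which hosts a copy of miR-9, an miRNA of neural progenitors, was at 22.2 to 31.3 CPM at P7 and 10.7 to 14.98 CPM at P35 (-0.96 ± 0.11). Mir22hg was at 12 to 17.9 CPM at P7 and 22.4 to 31.7 CPM at P35 (0.87 ± 0.11). Mir17hg, the host of the proliferation-linked miR-17 cluster, fell by 0.78 with overlapping groups (adjusted p = 0.015).

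Levels at E17.5 are given as a description, from a scaling over all 3 ages. Of 69 genes that fell from P7 to P35, among those chosen by the naming rules, 33 had a higher median at E17.5 than at P7 and 36 a lower one, and of 82 that rose, 6 and 76. Both comparisons share the P7 libraries by which these genes were chosen. No share over all genes was computed, so these counts have nothing to be set against. Median levels of Dcx were 857 CPM at E17.5, 326 at P7 and 15.7 at P35, and those of Sox11 were 1845, 250 and 43.1 CPM. Mki67 went from 199 to 42.5 and 4.36 CPM and Eomes from 99.3 to 10.9 and 1.36 CPM. Trim67, in contrast, had a median at E17.5 near that at P7 (84.1, 76.3 and 2.504 CPM), as had Dpysl3 (2443, 1953 and 78.1 CPM). The E17.5 libraries ranged from 67.5 to 267.5 CPM for Trim67. Cxadr, with medians of 520 CPM at E17.5, 733 at P7 and 36.02 at P35, and Stmn2, with 383, 737 and 198 CPM, were highest at P7. Among the genes that rose, Grin2a had medians of 32.2, 272 and 932 CPM, whereas Mobp was at a median of 0 at E17.5 and 0.41 CPM at P7. Aqp4 had medians of 3.87 CPM at E17.5 and 289 CPM at P7, and Grin2b of 267 and 854 CPM.

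**Figure D5:**
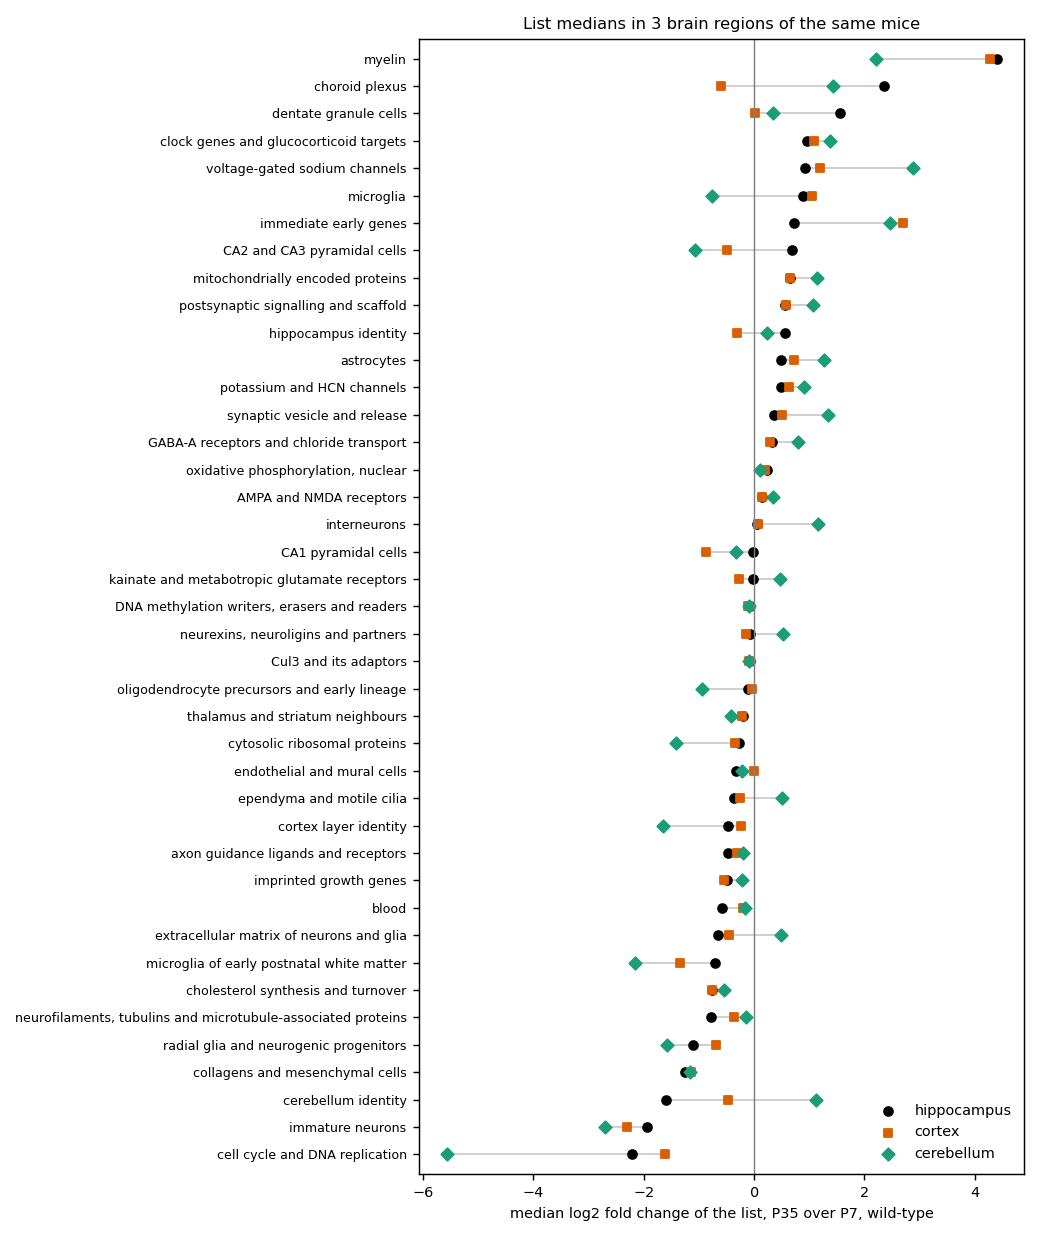
Median log2 fold change (P35 over P7) of the gene lists in WT hippocampus, cortex and cerebellum. Dentate granule genes lie at 1.55 in hippocampus and 0.02 in cortex, immediate early genes at 0.73 and 2.69, and cell cycle genes at -2.21 in hippocampus and -5.57 in cerebellum.

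The change in the hippocampus was set against that in the cortex and cerebellum of the same mice, with the interaction of region and age tested in a fit with the mouse as a block. The change differed from that of the cortex for 5813 of 18867 genes (30.8%), by at least 2-fold for 1132 (6.00%), and from that of the cerebellum for 12063 of 18989 genes (63.5%), by at least 2-fold for 4666 (24.6%). Against the cortex, the hippocampus was higher for 9 of 15 dentate granule genes (12.7% over all genes) and lower for 1, with list medians of 1.55 in hippocampus and 0.02 in cortex. The myelin list had similar medians of 4.40 in hippocampus and 4.28 in cortex. Of its 25 genes, 5 had a higher change in the hippocampus and 1 a lower one (12.7% and 18.1% over all genes). Mobp, which was near 0 CPM at P7 in the hippocampus, rose more than in the cortex, by a difference of 1.68 ± 0.30. Pvalb rose less, by -1.74 ± 0.24. Mobp differed from the cerebellum by 7.91 ± 0.44, where it was already at 85.0 CPM at P7.

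Immediate early genes rose less in the hippocampus than in the cortex. Of 18 genes, 16 had a lower change in the hippocampus and 1 a higher one, against 18.1% lower over all genes. Fos had a log2 fold change of 1.06 in hippocampus and 3.73 in cortex, a difference of -2.70 ± 0.20 (adjusted p = 2.8e-07), with mean levels of 7.14 and 14.9 CPM in hippocampus and 5.92 and 79.2 CPM in cortex. Arc differed by -2.04 ± 0.18 and Egr1 by -1.46 ± 0.17. How the mice or tissues were handled before collection is not in the labels, and its part in this difference was not tested.

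Among the genes with the smallest p for a higher change than in the cortex were Scn3b, Lrrc10b, Doc2b, Myo5b and Arhgef28. Scn3b, a sodium channel subunit, had mean levels of 260.8 and 285.0 CPM at P7 and P35 in hippocampus and 260.4 and 97.1 CPM in cortex, a difference of 1.55 ± 0.05. Doc2b, a calcium sensor of vesicle release, was at 75.2 and 80.4 CPM in hippocampus and 74.4 and 14.9 CPM in cortex. Its change did not pass the test in the hippocampus (adjusted p = 0.12) and was -2.33 on the log2 scale in the cortex. In the other direction were Arpp19, Myl4, Rims3, Dkkl1, Bmp3 and Pcsk1. Arpp19, a phosphatase inhibitor, was at 112.3 and 98.7 CPM in hippocampus and rose from 119.3 to 422.0 CPM in cortex (difference -2.01). Against the cerebellum, all 50 cell cycle genes had a higher change in the hippocampus (32.4% over all genes), with Top2a at 48.3 and 5.34 CPM in hippocampus and 414.2 and 1.11 CPM in cerebellum. Microglia genes also differed from the cerebellum, with 21 of 22 higher in the hippocampus and a list median of -0.77 in the cerebellum.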

How the data were processed

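Total RNA was ribodepleted and sequenced as stranded paired-end libraries. The authors deposited expected counts per gene, which the submitters' processing notes credit to cutadapt 1.14, STAR 2.5.3a and RSEM 1.3 on GRCm38.p5 (mm10). Multi-mapped reads of near-identical genes are split by RSEM, so values of such genes are uncertain. The deposited table held 53465 genes, of which 53360 had a GENCODE M21 entry.

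Expected counts were rounded, filtered with filterByExpr (count 10, total 15), scaled by TMM and tested with the quasi-likelihood test of edgeR 4.0.16 in R 4.3.3 between 6 P7 and 5 P35 libraries with no covariate, since the study's unwanted-variation factors were chosen for genotype. Calls needed an adjusted p (Benjamini-Hochberg) under 0.1. Standard errors were back-calculated from the fold change and its F statistic. Levels in E17.5 and in other regions come from fits scaled with those libraries. The 14 ratios, with 0.5 added to each count, were tested by exact permutation in Python 3.11.15. Each library was 1 mouse as labelled, and no pair of libraries agreed within sampling noise.

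The members and the 41 gene lists were chosen with earlier results of these data known. Named genes were the 15 largest rises and 15 largest falls among protein-coding genes called at 2-fold with a mean of at least 20 CPM and no overlap, the key genes and the 2 largest changes in each direction of each list, the paired genes, the 6 smallest p in each direction of each regional difference, Cul3 and the 5 steadiest genes above 50 CPM. The myelin gene Gpr37, the promoter examples Ccnb2 and Cdc20 and the miRNA hosts were chosen after their values were seen. A few genes that met these rules are not reported here. On simulated counts for 17704 genes, of which only 200 were changed, 88.9% of 2-fold and 100 of 100 4-fold changes were recovered. In that simulation 6.93% of calls were false. In the measured data 74.3% of genes were called, a setting the simulation did not cover, so its shares cannot be carried over. Alternatives were upper-quartile scaling, DESeq2 1.42.0, a likelihood ratio test, no filter, an Xist term, a replicate block, the left-out mouse and single libraries left out. Without both choroid plexus libraries was added after seeing the data. RefSeq tables of GRCm38.p6 gave the promoters and miRNAs.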

Additional observations from a re-analysis of the deposited data

Results flagged for a closer look

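Of 182 groups of libraries examined, 11 (6.04%) held 1 library far from the others by Dixon's criterion, and chance gives about 1 group in 20. The gap to the nearest library, as a share of the group's range, was 0.626 for Pvalb (P7 replicate 3, 0.700 CPM against 0.289 to 0.443), 0.67 for Col26a1 (P7 replicate 1, highest), 0.66 for Tmed10 (P7 replicate 4, lowest) and 0.673 for the chloride cotransporter ratio (P7 replicate 3, highest). The summed choroid plexus level of P7 replicate 2 was 160.4 CPM against 19.5 to 53.8 in the others (0.757). At P35, replicate 3 was highest for Trim67 (0.712), the cell cycle sum (0.831) and the cytoskeleton sum (0.732). Tubb2b was highest in replicate 2 (0.79), the sum of GABA receptor and chloride transport genes was lowest in replicate 5 (0.718), and the ratio of Dnmt3a to Dnmt1 was lowest in replicate 1 (0.744).

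The change with age differed between regions, by the interaction test, for genes named by smallest p. The log2 change in hippocampus minus that in cortex was 1.55 for Scn3b, 2.76 for Lrrc10b, 2.404 for Doc2b, 2.03 for Myo5b and 1.27 for Arhgef28. It was -2.01 for Arpp19, -3.47 for Myl4, -1.996 for Rims3, -4.08 for Dkkl1, -2.24 for Bmp3 and -2.26 for Pcsk1. Against the cerebellum it was 5.12 for Kcnq5, 7.57 for Insm1, 4.33 for Mcm6, 3.60 for Ypel1, 4.57 for Basp1 and 5.35 for Top2a. It was -3.08 for Snrk, -4.07 for Nab2, -2.84 for Golga7b, -2.43 for Erc1, -3.67 for Tmem266 and -4.38 for Garnl3.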

How the results depend on the processing

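The number of genes called was 13146, and 12899 to 13364 under upper-quartile scaling, DESeq2, the likelihood ratio test, an Xist term and the left-out mouse. Leaving out 1 library gave 12795 to 13166. With no filter, 31290 genes were tested and 2364 genes rose and 2852 fell by at least 2-fold, against 1413 and 1797. Leaving out both P35 libraries with choroid plexus RNA, an alternative chosen after seeing the data, reversed the choroid plexus median (-0.77), Ttr (-1.47), Kcne2 (-2.13) and Folr1 (-1.17), and the cause was not tested. P7 and P35 mice share replicate numbers but are different animals, and same-numbered libraries did not deviate together (correlations from -0.26 to 0.13), so the numbers do not pair them. A fit with the replicate block called 12935 genes, 1504 higher and 1794 lower by 2-fold. Of 5213 alternative values of single genes, 5155 kept their side of the threshold and, where the gene was called, its direction. For genes not called, a change of direction was not counted. Genes near the threshold, such as Ccdc153, Clec7a and Spp1, lost their call under some of them. Depth limits genes near 0 at P7, such as Opalin, whose folds rest on few counts.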
